A study of Caenorhabditis elegans with 3 samples.

Results

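The values of the ia03 and ju145 strains of Caenorhabditis elegans, both mutant for ahr-1, were averaged and set against wild type, and the gap between the mutants was kept beside each difference. A row entered the comparison when its status was OK in both deposited tables, its FPKM was at least 1 in any library, and its locus spanned at least 300 nt. Of 45343 features, 16301 had status OK in both tables, 14680 of these reached the FPKM floor and 14509 were compared. The rule fixed which rows were compared and used no direction or size of difference.

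Whole animals were sequenced as mRNA libraries at the L4 stage, the last larval stage, in cultures synchronised from eggs. The ia03 animals were strain ZG24 and the ju145 animals were strain CZ2485, against wild type animals of strain N2. Each strain gave 1 library, and the labels do not describe the lesion of either allele or the animals' sex. A difference shared by both mutants therefore cannot be told apart from a deviation of the single N2 library, and a difference held by 1 mutant cannot be told apart from the background of its strain.

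AHR-1 is the worm counterpart of the mammalian aryl hydrocarbon receptor. It belongs to the basic helix-loop-helix PAS transcription factors and pairs with AHA-1, the counterpart of ARNT, to bind DNA. In mammals the receptor is known for switching on cytochrome P450 and other detoxifying genes when it binds dioxins and related ligands. The worm protein is not known to bind dioxin, and is known instead for roles in the fate of GABA motor neurons, touch receptor neurons and the neurons that sense oxygen.

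All differences are on the log2(FPKM + 1) scale, where FPKM divides the fragments of a transcript by its length and by the size of the library. A pseudocount of 1 understates the differences of low rows. The mean difference is the average of ia03 and ju145 minus wild type, and the gap is ia03 minus ju145. A row passed the size rule when its mean difference was at least 1 in size, which is 2-fold, and larger than the gap, so that both mutants lay on the same side of wild type. The size rule is no test. A limma fit over all 14509 rows took ia03 and ju145 as 2 samples against 1 wild type sample, with Benjamini-Hochberg adjustment. Its spread came from the gap between the mutants alone, and the wild type library was assumed to vary like them.

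FPKM was above 0 for 18411 features in ia03, 18603 in ju145 and 18698 in wild type. The deposited values summed to 1520584 in ia03, 1713196 in ju145 and 1782858 in wild type, and the depth in fragments is unknown. The targeted gene did not check the labels. ahr-1 was at FPKM 0.699 in ia03 and 0.569 in ju145, against 0.664 in wild type, below the floor in every library, at I:9522570-9532823 in the coordinates of the files. A level over the whole gene does not show a lesion, and its locus holds 4 features. Being below the floor, ahr-1 stayed out of the comparison.

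By the size rule 74 rows were higher in both mutants, 0.51% of those compared, and 344 were lower, 2.37%, which makes 418 rows or 2.88%. limma called 70 rows (0.482%), 12 higher (0.0827%) and 58 lower (0.4%), at an adjusted p under 0.05, all of them inside the size rule, and 1499 rows had an unadjusted p under 0.05. Those 1499 rows are 10.3% of the rows compared, in either direction, and list counts at the unadjusted limit are read beside that share. Of 482 rows with a mean difference of at least 1 in size, 64 (13.3%) had a gap as large or larger. The median size of the mean difference over all rows, 0.21, lay below the median size of the gap, 0.23. For a typical gene the mutants thus stood about as far from each other as their mean stood from wild type. Both mutants lay below wild type in 6764 rows (46.6%) and above it in 3199 rows (22%).

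**Figure D1:**
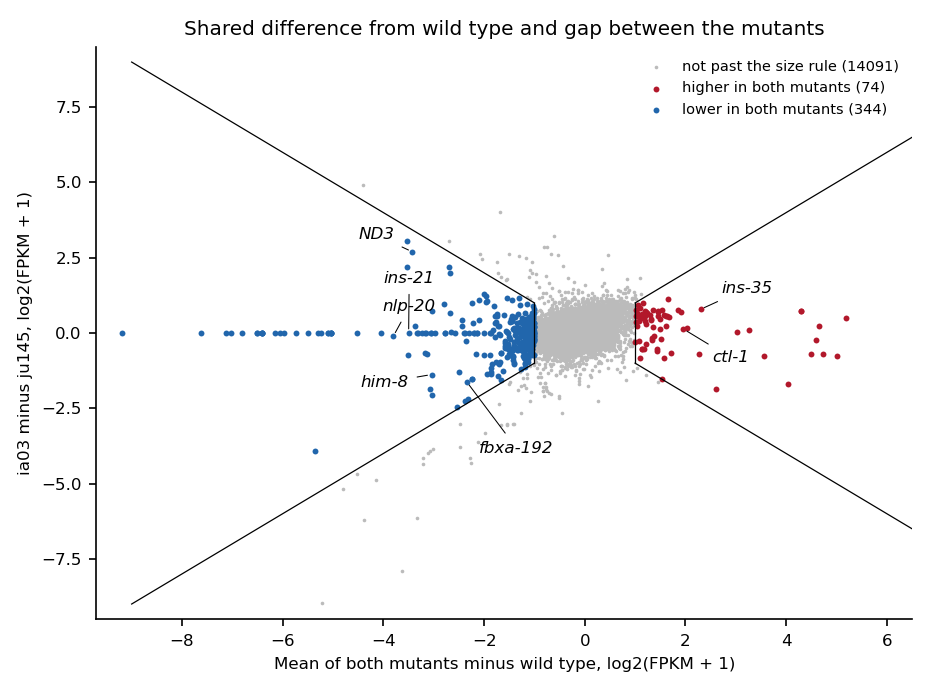
Each point is 1 of 14509 rows, with the mean of both mutants minus wild type on the horizontal axis and ia03 minus ju145 on the vertical axis, both in log2(FPKM + 1). The 74 higher and 344 lower rows lie outside the lines of the size rule. The row of points at a gap of 0 holds rows listed at 0 in both mutants.

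The median mean difference over all rows was -0.10, made up of medians of -0.02 in ia03 and -0.18 in ju145. The ju145 library was thus the lower one across most genes, and the median gap was 0.15. Rescaling each library by its median ratio to wild type moved the median mean difference to 0.00, and rescaling by the upper quartile moved it to 0.03. Under these scalings 117 and 128 rows were higher and 260 and 239 lower, so higher rows made up 17.7% of the calls as deposited and 31% and 34.9% after rescaling. Directions of gene lists near 0 are therefore read against -0.10.

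A pair of neighbouring catalase genes was higher in both mutants. Catalases break hydrogen peroxide down to water and oxygen. ctl-1, the cytosolic catalase gene at II:14303536-14306217, was at FPKM 32 in ia03 and 29.1 in ju145, against 7.08 in wild type. Both mutants lay far above wild type and close to each other, with a mean difference of 1.96 (limma SE 0.25), a gap of 0.13 and an adjusted p of 0.04. It was the only protein-coding gene that limma called higher. Its neighbour ctl-3 was at 17.6 in ia03 and 15.8 in ju145, against 5.25 in wild type. Again both mutants were above wild type, by 1.5 (SE 0.27) with a gap of 0.15, but the adjusted p was 0.17. ctl-2, which encodes the peroxisomal catalase next to them, was at 73.1 in ia03 and 66.6 in ju145, against 77.2 in wild type. There the 3 libraries lay close together, with a mean difference of -0.14 and an adjusted p of 0.94. The catalases are similar in sequence, so the split of reads among them is uncertain. In the list of catalases, superoxide dismutases and peroxiredoxins, 2 of 9 compared members were past the size rule, both of them catalases. Both were higher, which is 22.2% of the list beside 0.51% of all rows. The list median was 0.07, and sod-3, the mitochondrial superoxide dismutase gene often used as a readout of DAF-16, was at 2.24 in ia03 and 2.28 in ju145, against 3.17 in wild type.

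Peptide genes held the largest mean difference in each direction among protein-coding rows above 0 in all libraries, nlp-20 the lowest and ins-35 the highest. nlp-20, a neuropeptide-like gene at IV:7642046-7643114, was at FPKM 9.10 in ia03 and 9.88 in ju145, against 145.4 in wild type. Both mutants lay at a small fraction of the wild type level and almost together, with a mean difference of -3.80 (SE 0.23), a gap of -0.11 and an adjusted p of 0.0016, and nlp-20 fell in the limma fit. Of 68 nlp genes compared, 0 were higher and 2 lower by the size rule (2.94%, beside 2.37% of all rows), nlp-20 and nlp-66. The list median was 0.05. nlp-66 was at 2.49 in ia03 and 1.55 in ju145, against 5.12 in wild type.

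Insulin-like peptides are ligands of the DAF-2 receptor, some activating and some blocking it. ins-35 was at FPKM 30.1 in ia03 and 17 in ju145, against 3.81 in wild type. Both mutants were above wild type, by 2.30 (SE 0.38), but ia03 was well above ju145, with a gap of 0.79 and an adjusted p of 0.14. ins-21 was listed at 0 in both mutants and at 10.3 in wild type. Its mean difference of -3.50 (SE 0.27) depends on the pseudocount and on 2 libraries listed at 0, and so does its call in limma. Among 28 insulin-like genes 1 was higher and 1 lower by the size rule (3.57% each, beside 0.51% and 2.37% of all rows). Of the 28 genes 20 were below wild type, and the list median was -0.48. At an unadjusted limma p under 0.05 the list had 1 higher and 6 lower members. All 28 have 1000 nt of exon or less. The core of the insulin pathway downstream, 11 genes, had 0 past the size rule, 0 at an unadjusted limma p under 0.05 and a median of -0.14. Of 10 DAF-16 output genes 1 was past the size rule, the higher ctl-1 (10%, beside 0.51% of all rows), which is also in the catalase list. The list median was -0.11, beside -0.10 over all rows. Of the 10 genes 6 were below and 4 above wild type in both mutants.

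argk-1, an arginine kinase gene, was at FPKM 35.3 in ia03 and 23.2 in ju145, against 8.95 in wild type. Arginine kinases store phosphate energy in invertebrate cells as creatine kinase does in vertebrates. Both mutants were higher, by 1.57 (SE 0.32) with a gap of 0.59, and the adjusted p was 0.24. Of 47 lysozyme, saposin and antimicrobial genes 1 was higher (2.13%, beside 0.51% of all rows) and 0 lower. The higher gene, the saposin-like spp-28, was at 8.66 in ia03 and 11.3 in ju145, against 3.66 in wild type, and fip-6, of the fungus-induced protein family, was at 36.7 in ia03 and 31 in ju145, against 16 in wild type. In both genes the mutants lay together above wild type, and limma gave adjusted p of 0.33 and 0.31.

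**Figure D2:**
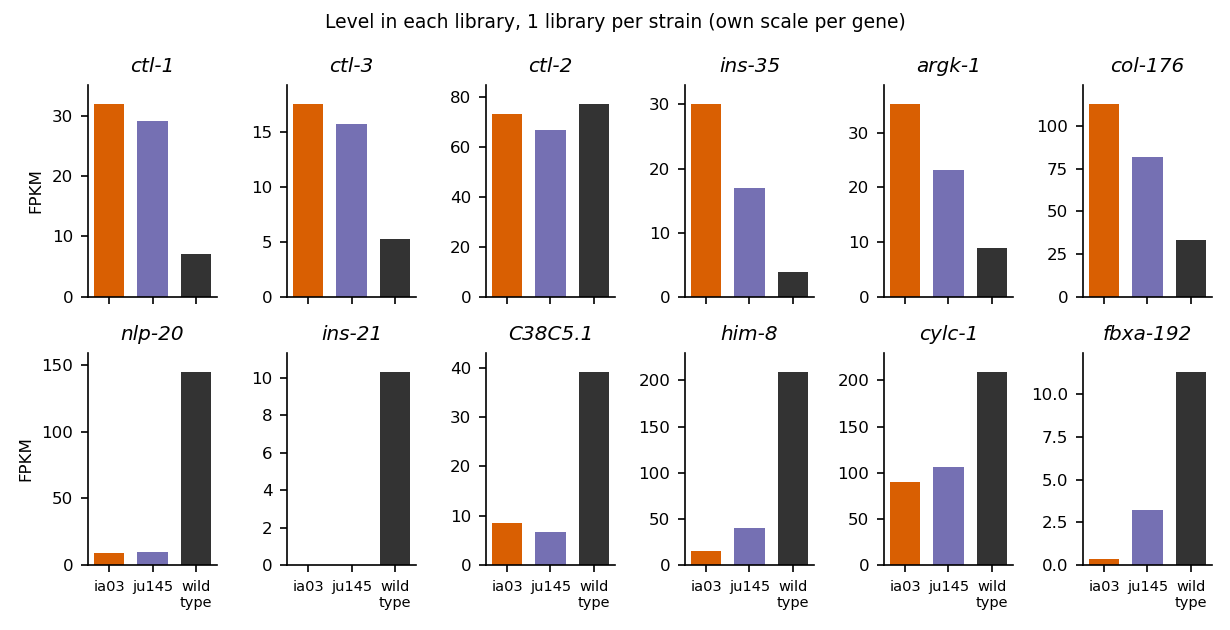
FPKM on the vertical axis of 12 genes in ia03, ju145 and wild type, 1 library each, on a scale of its own for each gene. For ctl-1, ctl-3 and nlp-20 the mutants lie together and away from wild type, ctl-2 is level, and him-8, fbxa-192 and ins-35 differ from wild type in both mutants but also between them.

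Cuticle and moulting genes leaned higher. The cuticle is shed at the end of each larval stage, and its collagens, the zona-pellucida-domain protein NOAH-2 and the fibrillin-like FBN-1 are laid down around each moult. Of 134 cuticle collagens 3 were higher (2.24%, beside 0.51% of all rows) and 0 lower by the size rule. The median was 0.15 beside -0.10 over all rows. limma called 0 of them at an adjusted p under 0.05, with 15 higher and 0 lower at an unadjusted p under 0.05. Over all rows 10.3% were under that unadjusted limit, in either direction. col-176 was at FPKM 113 in ia03 and 82.0 in ju145, against 33.5 in wild type. Both mutants were well above wild type, by 1.49 (SE 0.26) with a gap of 0.45, but the adjusted p was 0.17. The body-shape collagen dpy-3 was at 84.2 in ia03 and 54.9 in ju145, against 27.1 in wild type, and dpy-9 was at 77.9 in ia03 and 50.5 in ju145, against 30.3 in wild type. In both of these ia03 was the highest library, with gaps of 0.61. col-169 lay just outside the size rule, at 427 in ia03 and 428 in ju145, against 215 in wild type, with a mean difference of 0.99. The collagens did not move as a block: 65 were above and 35 below wild type in both mutants, and the lowest was col-124, at 2326 in ia03 and 3951 in ju145, against 5121 in wild type.

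Of 102 moulting and hypodermal matrix genes 2 were higher (1.96%, beside 0.51% of all rows) and 0 lower by the size rule. The median was 0.23. limma called 0 at an adjusted p under 0.05, with 10 higher and 0 lower at an unadjusted p under 0.05. fbn-1 was at 27.5 in ia03 and 17.7 in ju145, against 9.56 in wild type, and noah-2 was at 107 in ia03 and 72.4 in ju145, against 43.1 in wild type. These genes were higher in both mutants and highest in ia03, and the list median was 0.40 in ia03 and 0.04 in ju145. Of the 74 higher rows 50 (67.6%) had ia03 above ju145, beside 69.9% of all rows. Of the 344 lower rows 165 (48%) had ia03 below ju145, beside 29.8% of all rows. Another 52 of the 344 were listed at 0 in both mutants, so their gap was 0 and fell on neither side. The higher genes also included the cadherin gene cdh-7, at 21 in ia03 and 11.8 in ju145, against 7.30 in wild type, with a gap of 0.78 close to its mean difference of 1.02.

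Sperm transcripts were below wild type in nearly every case. Hermaphrodites make sperm during the L4 stage before they switch to oocytes. All 55 genes of the list of sperm genes other than major sperm proteins had a mean difference below 0, 53 of them in both mutants, with a median of -0.66. All 31 compared rows of the major sperm protein list, whose products build the sperm cytoskeleton, were below wild type in both mutants, with a median of -0.57. Few were 2-fold lower: 1 major sperm protein row and 2 other sperm genes passed the size rule, and limma called 0 of either at an adjusted p under 0.05, with 10 and 28 lower at an unadjusted p under 0.05. The rows past the size rule were 3.23% of the major sperm protein list and 3.64% of the other, beside 2.37% lower over all rows. ssp-16 was at FPKM 130 in ia03 and 152 in ju145, against 284 in wild type. ssp-36 was at 21.7 in ia03 and 27.9 in ju145, against 52.4 in wild type. The smallest difference was that of spe-36, at 1.41 in ia03 and 1.37 in ju145, against 1.41 in wild type. Summed over the list, the FPKM of major sperm proteins was 16506 in ia03 and 22956 in ju145, against 31158 in wild type, and that of other sperm genes was 4562 in ia03 and 5594 in ju145, against 7736 in wild type. No gene of the other sperm list was at 0 in any library. In whole animals fewer sperm cells and less RNA per cell cannot be told apart. Near-identical msp copies share reads, and their rows are not independent.

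The median of the sperm list was -0.59 over its 26 genes with more than 1000 nt of exon and -0.68 over its 29 shorter ones. Over all protein-coding rows the median was -0.09 both at 1001 to 2000 nt and above 2000 nt. Rescaling left both sperm medians negative, at -0.55 and -0.51 for the other sperm genes and -0.46 and -0.43 for the major sperm proteins.

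Several called families outside the lists were named after their values were seen. Over all rows 2.37% were lower by the size rule. cylc-1 and cylc-2 were the only cylc genes compared and both passed the size rule. cylc-1 was at 89.8 in ia03 and 106 in ju145, against 209 in wild type, and cylc-2, in the same locus as ahr-1, was at 48.6 in ia03 and 49.5 in ju145, against 112 in wild type. In cylc-2 the mutants lay almost on each other, with a mean difference of -1.18 (SE 0.21), a gap of -0.02 and an adjusted p of 0.17. The nspd genes, a nematode-specific peptide family whose similar copies may share reads, had 9 rows, all below wild type with a median of -0.97, and 4 were past the size rule. These 4 have 216 nt of exon, and 16.6% of all protein-coding rows with 201 to 300 nt were lower. The highest of the 4, nspd-3, was at 577 in ia03 and 883 in ju145, against 1501 in wild type. Of 5 synaptobrevin-related snb genes, a family picked, like nspd and irld, because it holds called rows, 2 were lower and 3 below wild type, with a median of -0.41. The lower genes were snb-5 with a mean difference of -1.21, and snb-7 at 1.57 in ia03 and 3.86 in ju145, against 6.97 in wild type. Of 10 irld genes, named for a domain of insulin and EGF receptors, 2 were lower and 9 below wild type, with a median of -0.62.

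Yolk genes were below wild type as well. Vitellogenins are yolk proteins made in the intestine from the end of larval life. All 6 were below wild type in both mutants, with a median of -0.80, 0 past the size rule, 0 called by limma at an adjusted p under 0.05 and 4 lower at an unadjusted p under 0.05. vit-6 was at 1602 in ia03 and 2057 in ju145, against 3301 in wild type, and vit-1 was at 248 in ia03 and 349 in ju145, against 404 in wild type. Their sum was 4183 in ia03 and 5751 in ju145, against 8211 in wild type. In every vit gene ia03 was lowest, ju145 between and wild type highest. Across the 3 libraries both sperm sums and the yolk sum were lowest in ia03 and highest in wild type, while the summed FPKM of the moulting list was 4250 in ia03 and 3610 in ju145, against 3160 in wild type. The summed FPKM of the cuticle collagens was 66656 in ia03 and 89873 in ju145, against 84910 in wild type, lowest in ia03 and highest in ju145. Moulting, sperm and yolk genes all vary with age around the L4 stage, and the part of age in these differences was not tested.

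The remaining germline lists differed less. All 21 germline genes had a mean difference below 0, 19 in both mutants, with a median of -0.23, none past the size rule and none at an unadjusted limma p under 0.05. pgl-1, a P granule component, was at 143 in ia03 and 146 in ju145, against 184 in wild type. Of 13 oocyte genes 11 lay below wild type, and their median of -0.16 became -0.05 and -0.02 on rescaling. Of 23 genes of meiotic pairing and synapsis 20 were below wild type in both mutants, with a median of -0.30. By the size rule 1 was lower (4.35%, beside 2.37% of all rows). This was him-8, the zinc finger gene that pairs the X chromosomes in meiosis, at IV:10561894-10563954, at 14.8 in ia03 and 40.1 in ju145, against 209 in wild type. Both mutants were far below wild type but unlike each other, so the mean difference of -3.04 (SE 0.53) had a gap of -1.38 and an adjusted p of 0.17. The authors' deposited tables gave him-8 a q-value of 0.33 in ia03 and 0.75 in ju145. Without him-8 the lowest of these genes was him-5, at 8.33 in ia03 and 5.39 in ju145, against 10.6 in wild type.

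**Figure D3:**
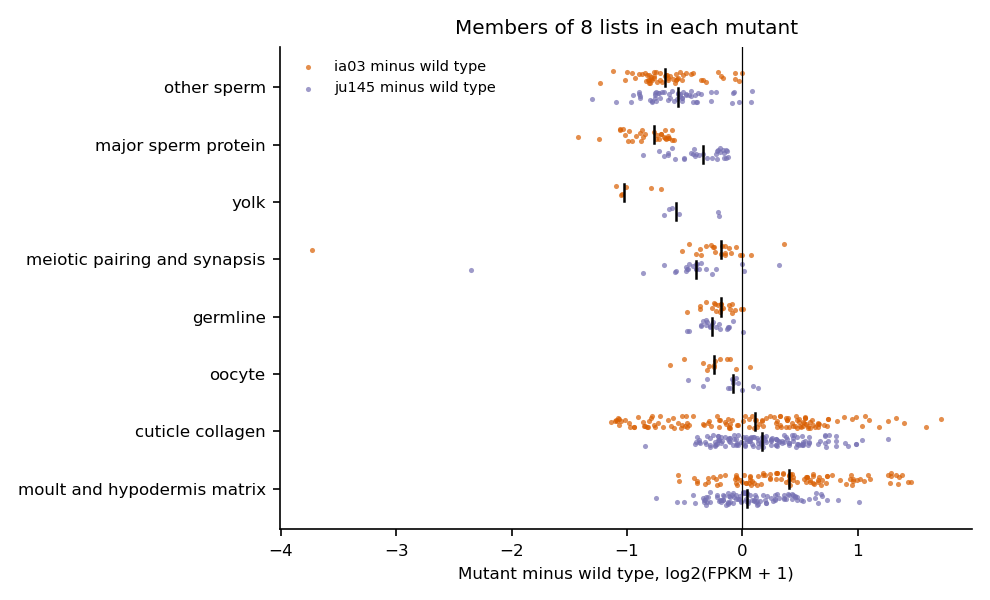
Each point is 1 member of 8 gene lists in ia03 or in ju145, as mutant minus wild type in log2(FPKM + 1) on the horizontal axis, and black bars are medians. The medians of both sperm lists and of the yolk list lie left of 0 in both mutants. him-8 lies far left of the other meiotic genes, and collagens spread to both sides.

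Detoxification genes, the best known targets of the receptor in mammals, were near wild type when the mutants were averaged. None of 48 cytochrome P450 genes, 51 UDP-glucuronosyltransferase genes, 40 glutathione S-transferase genes and 49 ABC transporter genes passed the size rule, and limma called 0 of them, with 0 higher and 7 lower over these 4 lists at an unadjusted p under 0.05. The medians were -0.04 for P450s, -0.19 for UDP-glucuronosyltransferases, -0.04 for glutathione S-transferases and -0.09 for ABC transporters. The P450 with the highest mean difference, cyp-13B1, was at 11.2 in ia03 and 5.65 in ju145, against 3.52 in wild type, just short of the size limit and with a gap of 0.88. The partners of AHR-1 were level. aha-1 was at 11 in ia03 and 8.27 in ju145, against 9.51 in wild type, with wild type between the mutants and a mean difference of 0.00. The list of bHLH-PAS genes and partners had 6 genes compared, 0 past the size rule, 0 at an unadjusted limma p under 0.05 and a median of -0.01. hif-1, the hypoxia factor that also pairs with AHA-1, was at 93.2 in ia03 and 95.6 in ju145, against 96.1 in wild type.

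Of the genes on 3 neuron lists, 0 passed the size rule. The median of 9 GABA neuron genes was -0.02, that of 18 pan-neuronal genes was 0.02 and that of 10 touch receptor neuron genes was 0.17, and none of these genes reached an unadjusted limma p under 0.05. Touch receptor genes were above wild type in 9 of 10 cases, among them mec-7, a beta-tubulin gene, at 42.4 in ia03 and 47 in ju145, against 38.2 in wild type. Of the oxygen-sensing neuron genes only 2 could be compared, and transcripts of a few neurons are diluted in whole-animal RNA. No male-specific neuron gene reached the FPKM floor, and their sum was 1.81 in ia03 and 1.44 in ju145, against 1.14 in wild type.

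Of the 38 lists with at least 5 members compared, 23 had no row past the size rule. The 69 ribosomal protein genes had a median of 0.18 (0.00 in ia03 and 0.35 in ju145), and the 64 histone genes 0.13, with 0 past the size rule in either. Of 47 heat shock genes 1 was lower, hsp-70, at 11.2 in ia03 and 11.4 in ju145, against 24.7 in wild type, with a gap of -0.02 and an adjusted p of 0.31. That 1 lower gene is 2.13% of the heat shock list, beside 2.37% lower over all rows. The small heat shock gene hsp-16.11 was at 293 in ia03 and 319 in ju145, against 600 in wild type, with a mean difference of -0.97. Of 138 F-box genes, which encode adaptors of ubiquitin ligases, 0 were higher and 5 lower (3.62%, beside 2.37% of all rows), with a median of -0.22. Of these 5, the neighbours fbxa-191, fbxa-192 and fbxa-193 make up 3. Of the 344 lower rows 327 belonged to none of the lists, and of the 74 higher rows 64 did not. Most of the 14509 rows compared belong to no list either, so these counts alone do not set the called rows apart.

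**Figure D4:**
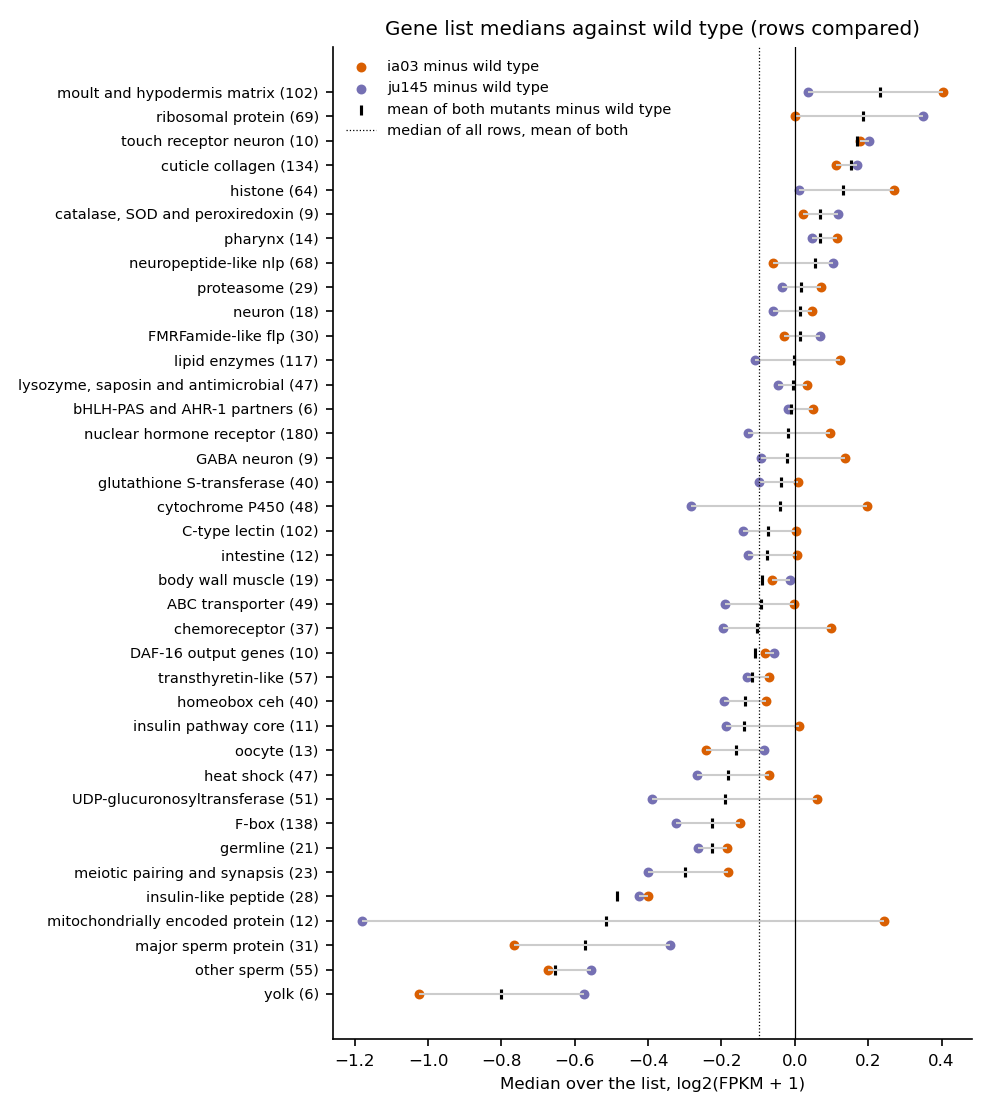
Median difference from wild type in log2(FPKM + 1) of 38 gene lists with at least 5 rows compared, for ia03, for ju145 and for the mean of both, ordered by the last. Yolk and sperm lists lie lowest, the dotted line at -0.10 is the median of all rows, and the mitochondrially encoded list has the widest distance between the mutants.

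Adjacent genes were called together in a few places. Each of 12910 loci in order was represented by its first listed row, so called rows listed later in a shared locus were not counted. That row was higher in 72 loci, with 2 adjacent pairs, ctl-1 with ctl-3 and C24H10.4 with C24H10.3. It was lower in 254 loci, of which 27 had a lower neighbour. The longest run counted this way held fbxa-191, fbxa-192 and fbxa-193 at V:17637956-17655255. fbxa-192 was at 0.381 in ia03 and 3.24 in ju145, against 11.3 in wild type, and fbxa-191 was at 0.145 in ia03 and 1.21 in ju145, against 4.12 in wild type. fbxa-193 was at 0.211 in ia03 and 2.59 in ju145, against 5.58 in wild type. In all of them ia03 was near 0 and ju145 stood between ia03 and wild type, with gaps of -0.95 to -1.62. fbxa-191 and fbxa-193 are annotated as pseudogenes, and similar F-box copies may share reads. Around ahr-1 itself, within 1 Mb on chromosome I, 3 of 399 rows were higher and 13 lower (3.26%), near the 2.37% over all rows.

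The X chromosome differed from the autosomes in its share of lower genes. Of 1937 protein-coding rows on X, 12 (0.62%) were higher and 11 (0.568%) lower, while of 11652 on the autosomes 39 (0.335%) were higher and 206 (1.77%) lower. The median mean difference was 0.01 on X and -0.11 on the autosomes, and X was the higher one in each mutant, with medians of 0.08 and -0.03 in ia03 and of -0.07 and -0.20 in ju145. None of the 86 compared sperm rows lies on X. Among the 11569 autosomal protein-coding rows outside both sperm lists, 39 were higher and 204 (1.76%) lower, with a median of -0.10. Both lists hold few of the 11652 autosomal rows, so leaving them out could hardly move the lower share. The part of sperm genes was not tested. Genes are not replicates, so this difference between chromosomes was not tested.

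Short transcripts held much of the lower set. ncRNAs were lower in 80 of 163 rows (49.1%) and higher in 12 (7.36%), and snoRNAs were lower in 7 of 14 (50%), against 218 lower (1.6%) and 51 higher (0.375%) of 13601 protein-coding rows. F54C8.11, an ncRNA of 112 nt, was listed at 0 in both mutants and at 582 in wild type, and C54D2.11, an ncRNA of 149 nt, was at 42.0 in ia03 and 29.7 in ju145 and listed at 0 in wild type. Of the 70 rows limma called, 46 were ncRNAs, 12 were protein-coding and 57 were listed at 0 in a library. Rows listed at 0 in both mutants, 52 of the lower ones, have no gap between the mutants, which favours them in the test. The span limit did not remove them because a locus in the files can hold several features, and 165 of the 418 called rows share theirs.

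Among protein-coding genes the share lower by the size rule was 3.7% up to 200 nt of exon, a class of 27 rows, 16.6% at 201 to 300 nt, 7.82% at 301 to 500 nt, 2.35% at 501 to 1000 nt, 0.421% at 1001 to 2000 nt and 0.152% above 2000 nt. The share higher was 3.7%, 1.27%, 1.69%, 0.535%, 0.123% and 0.152% in the same classes. FPKM of short transcripts rests on few fragments and on a steep length correction, and the part of length in these calls was not tested.

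**Figure D5:**
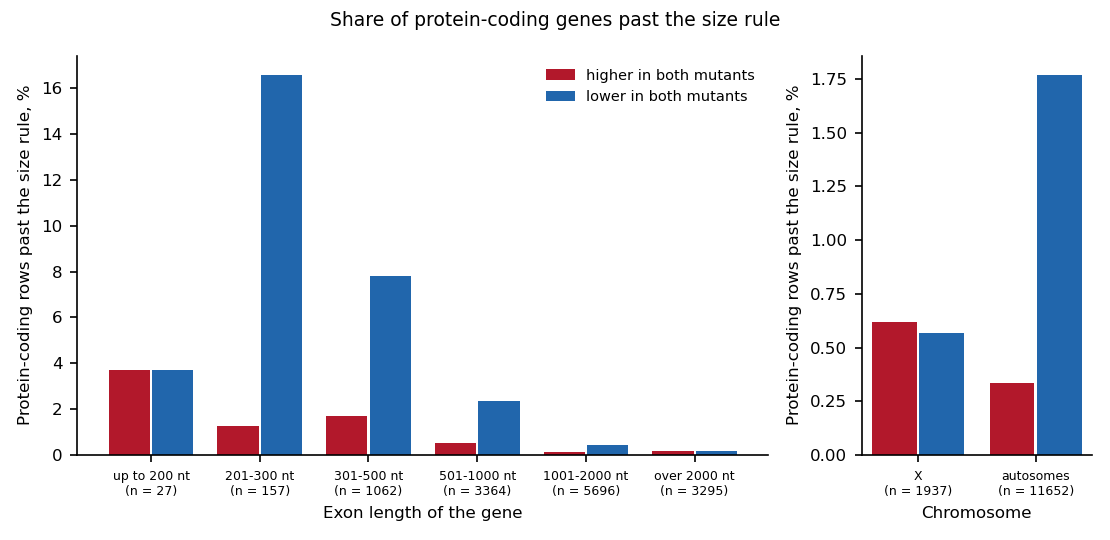
Percent of protein-coding rows that were higher or lower in both mutants by the size rule, by exon length on the left and for X and the autosomes on the right, with the number of rows under each class. The lower share is 3.7% up to 200 nt, 16.6% at 201 to 300 nt and 0.152% above 2000 nt, and it is 0.568% on X and 1.77% on the autosomes.

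Above 1000 nt of exon, 12 of 8991 protein-coding genes (0.133%) were higher and 29 (0.323%) lower, and limma called 1 of them, ctl-1. The size rule itself keeps each gap below the mean difference. The lower ones had a median gap of 0.21 in size, beside 0.23 over all rows, and 27 of 29 gaps were under 50% of the mean difference. The higher ones had a median gap of 0.58, and 5 of 12 gaps were that small. ZK354.3 was at 10.3 in ia03 and 10.5 in ju145, against 36.2 in wild type, with a mean difference of -1.71 (SE 0.25) and an adjusted p of 0.08. T07E3.2 was at 18.3 in ia03 and 17.3 in ju145, against 48.0 in wild type, and cdh-5, a cadherin gene, was at 15.3 in ia03 and 16.7 in ju145, against 35.7 in wild type. In these genes both mutants lay together at less than 50% of wild type, but the adjusted p of T07E3.2 and cdh-5 were 0.15 and 0.28.

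Besides nlp-20 and ins-21, limma called 9 protein-coding genes lower, all named here by their sequence. C38C5.1 was at 8.61 in ia03 and 6.68 in ju145, against 39.1 in wild type, with a mean difference of -2.22 (SE 0.28) and an adjusted p of 0.041. Y116A8C.465 was at 2.32 in ia03 and 2.97 in ju145, against 17.7 in wild type, and EEED8.18 was at 2.02 in ia03 and 1.96 in ju145, against 18 in wild type. Their mutants lay close together, with adjusted p of 0.04 and 0.019 in limma. The other 6, F11C1.9, Y49F6B.6, T07H3.8, M03C11.9, B0563.9 and F26H11.8, were listed at 0 in both mutants, with wild type between 3.03 and 9.08 and 240 to 305 nt of exon.

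At the limit of the size rule, F46F2.3 was just inside, at 695 in ia03 and 850 in ju145, against 383 in wild type, and dpy-6, a mucin-like gene of body shape, was just outside, at 43.1 in ia03 and 30.1 in ju145, against 17.7 in wild type. Genes such as clec-209 and spp-31 failed on the gap. clec-209 was at 41.3 in ia03 and 353 in ju145, against 389 in wild type, and spp-31 was at 23.1 in ia03 and 3.13 in ju145, against 23.6 in wild type. In each the mean difference of -1.67 or -1.3 came from 1 mutant only. ND3, encoded in the mitochondrial genome, passed with a mean difference of -3.43 although its gap was 2.70, at 275 in ia03 and 41.5 in ju145, against 1163 in wild type.

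The authors' deposited tables called 139 features in both mutants, of which 131 were compared. Of these 10 were higher and 96 lower by the size rule, and 25 did not pass it. A q-value under 0.05 in both mutants is a different criterion from that call, since cylc-1, fbn-1 and dpy-9 met it but were not called. The authors' q-values each compare 1 library with the same wild type library. They were under 0.05 in both tables for 21 of the 74 higher rows and 113 of the 344 lower rows, among them ctl-1, ctl-3, nlp-20, argk-1, ins-35 and col-176.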

How the data were processed

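The authors deposited 1 table per mutant with FPKM values of the mutant and of wild type per the file headers, and p-values and q-values of their own comparison, also per the file headers. The tools named, per the submitters' processing notes, are TopHat 1.3.1 with Bowtie2 2.0.2, Cuffdiff with Cufflinks 1.3.0, and SAMtools 0.1.16 with FastQC, in no stated role. A genome build was not given in the sources used here. The wild type column was the same in both tables, so the tables were joined on their first column. Values are FPKM as the authors deposited them; log2(FPKM + 1) was computed here. FPKM holds no counts, so no counting interval could be given, and 1 library per strain leaves p-values that measure only the gap between the mutants.

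limma 3.58.1 in R 4.3.3 (eBayes with trend, Benjamini-Hochberg over 14509 rows) was tested on simulated data. Its total degrees of freedom were 6.09. Python 3.11.15, numpy 2.4.6, pandas 2.3.3 and matplotlib 3.10.9 were used. Biotypes and exon lengths came from Ensembl release 115 by sequence name, matched for 44060 features. Positions are in the files' own coordinates, written 1-based. The comparison and the 41 gene lists were chosen with earlier results of these data known. Named genes were the 15 largest per direction among coding rows above 0, those with the smallest or largest gaps, those at 0, those at the size limit, up to 3 called members per list, ahr-1 and aha-1. Genes named outside this rule, such as ctl-2, fbxa-193, cdh-5, cylc-1, the nspd and snb genes, ZK354.3, T07E3.2, F54C8.11, C54D2.11 and list members at the ends of a list, were chosen after their values were seen. Alternatives were other pseudocounts, filters, scalings, size limits, limma settings and leaving out either mutant.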

Additional observations from a re-analysis of the deposited data

Results flagged for a closer look

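For several results the 2 mutants lay on opposite sides of wild type, which the mean hides, and none of these differences was tested. The 48 cytochrome P450 genes had a median of 0.20 in ia03 and one of -0.28 in ju145, a distance of 0.48. The 117 lipid enzymes stood at a median of 0.12 in ia03 and of -0.11 in ju145, a distance of 0.23. Over all rows the medians were -0.02 in ia03 and -0.18 in ju145, with a median gap of 0.15. The lipid list thus lay above the all-row median in both mutants. The 12 mitochondrially encoded protein genes had their median at 0.24 in ia03 and at -1.18 in ju145, a distance of 1.42, and MTCE.4 among them was at 0.69 in ia03 and -2.18 in ju145, with a gap of 2.87. Among single genes, C29E4.17 was at 0.76 in ia03 and -1.84 in ju145, with a gap of 2.60. Y53G8AL.4 was at 1.75 in ia03 and -0.84 in ju145, with a gap of 2.59. F09B12.7 went the other way, at -1.77 in ia03 and 0.87 in ju145, with a gap of -2.64. All are log2(FPKM + 1) values against wild type.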

How the results depend on the processing

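No paired analysis was possible because each strain has 1 library and the labels give no shared replicate. By the size rule, 74 higher and 344 lower rows became 186 and 560 with a pseudocount of 0.1, 24 and 173 with a pseudocount of 5, 311 and 1605 at 1.5-fold, and 16 and 81 at 4-fold. Higher rows were 117 after rescaling by the median ratio, 128 by the upper quartile and 46 among rows above 0 in all libraries. With 1 mutant left out and no condition on the gap, higher rows ran from 78 to 240 and lower rows from 441 to 518; the larger values are those of ia03 alone. The list median of mitochondrially encoded proteins ran from -1.18 without ia03 to 0.24 without ju145, where it changed sign. limma, with 12 higher and 58 lower, gave 73 and 353 among rows above 0 in all libraries and 69 and 294 with robust variances. In the fit on rows above 0 the total degrees of freedom were 14336, so a row's own gap hardly counted. Chosen after the data were seen, protein-coding rows gave 218 lower by the size rule, and 1 higher and 11 lower in limma. Protein-coding rows with over 500 nt of exon gave 30 and 108 by the size rule, and 1 and 2 in limma. The cause of these changes was not tested, other than that the coding sets hold fewer rows. Single libraries and unknown depth limit every value.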
